A study of Mus musculus with 8 samples.

Results

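Nearly all tested cytosolic ribosomal protein genes of mouse proximal tubules were higher after cisplatin at 24, 48 and 72 h than at 0 h. Of 152 other rows at least as high as the lower quartile of these genes, 51.3%, 66.4% and 70.4% were lower. Those shares hold for levels as deposited, and the 152 rows were not read under other scalings. The ribosomal protein genes were taken as the rows whose identifiers map to a mouse symbol beginning Rpl or Rps with a digit, or Rplp with a digit from 0 to 2, without the Rps6k kinases and without pseudogenes. The rule found 66 of 21874 rows. It used names only and no measured value. By role these were 25 small subunit proteins, 30 large subunit proteins, 2 acidic proteins of the large subunit stalk (Rplp1 and Rplp2), and 8 paralogs outside the canonical set. The remaining row was Rps19bp1, which carries a matching name but encodes a binding partner of Rps19 and not a ribosomal protein.

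The series holds 8 libraries of proximal tubular cells isolated from the renal cortex of male C57BL/6 mice, with 2 libraries at each of 0, 24, 48 and 72 h. The mice received cisplatin, a platinum drug that crosslinks DNA and injures the proximal tubule, into the peritoneum at 30 mg/kg to cause acute kidney injury. No allele, transgene or vehicle group is named in the labels, so 0 h is the baseline of every comparison, and no source used here gives the age of the mice. The design text calls the duplicates biological without saying that they came from separate animals, and p-values here rest on the spread of these library pairs. Levels were FPKM, fragments scaled to gene length and to the mapped depth of the library, so that they compare genes per length and are relative to each library's own total. In such bulk samples fewer cells of a type and less RNA per cell cannot be told apart.

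A cytosolic ribosome is built from ribosomal RNA and about equal amounts of each ribosomal protein, which the nucleolus assembles into a small subunit that decodes mRNA and a large subunit that joins amino acids. The mRNAs of these proteins are among the most abundant of a cell and are regulated together: they begin with a run of pyrimidines (the 5′ TOP, or terminal oligopyrimidine, motif), through which mTORC1 and the RNA-binding protein Larp1 control their translation and stability. Ribosomal proteins that are not built into ribosomes can bind Mdm2 and so stabilise p53.

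The shared start of these genes can be read from the promoter sequences of RefSeq (GRCm38.p6, the assembly also known as mm10). A promoter sequence was given for 49 of the genes, in 56 windows. The windows below run from 25 bases before to 25 bases from the start on, 5′ to 3′ on the gene's strand, and capitals mark the longest run of at least 7 C or T bases. They are shown for members with large changes described below (Rps24, Rpl12, Rpl5, Rps12, Rps18, Rpl36a and Rps16), for Rps6 and Rplp2 as members of known role with long runs, and for 2 paralogs with different courses. Rps24 and Rpl3l have another start with a window of its own, which is not shown.
Rps24 (chr14:24490653-24490702, plus strand): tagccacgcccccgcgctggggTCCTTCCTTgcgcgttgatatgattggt
Rpl12 (chr2:32961687-32961736, plus strand): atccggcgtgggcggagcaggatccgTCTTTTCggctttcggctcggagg
Rpl5 (chr5:107900503-107900552, plus strand): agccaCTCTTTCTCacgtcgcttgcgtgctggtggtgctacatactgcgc
Rps12 (chr10:23787185-23787234, minus strand): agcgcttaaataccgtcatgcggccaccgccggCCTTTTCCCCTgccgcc
Rps18 (chr17:33955641-33955690, minus strand): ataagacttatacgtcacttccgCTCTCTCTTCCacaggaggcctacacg
Rpl36a (chrX:134585629-134585678, plus strand): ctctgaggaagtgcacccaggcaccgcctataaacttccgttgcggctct
Rps16 (chr7:28350664-28350713, plus strand): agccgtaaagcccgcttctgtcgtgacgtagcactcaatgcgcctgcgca
Rps6 (chr4:86857343-86857392, minus strand): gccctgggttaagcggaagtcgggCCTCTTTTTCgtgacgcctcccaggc
Rplp2 (chr7:141447626-141447675, plus strand): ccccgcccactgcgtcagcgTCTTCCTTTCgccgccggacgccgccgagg
Rpl22l1 (chr3:28805483-28805532, plus strand): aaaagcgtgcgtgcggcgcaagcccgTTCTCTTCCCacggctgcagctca
Rpl3l (chr17:24727801-24727850, plus strand): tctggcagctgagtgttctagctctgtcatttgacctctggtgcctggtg
In the Rpl12, Rps18, Rps6 and Rpl22l1 windows the capitals begin at or close to the start, where a TOP motif lies. Those of Rps24 and Rplp2 begin before the start and run across it. Rpl36a and Rps16, which were called higher, and Rpl3l, which was called lower, have no run of that length. A run of at least 7 C or T bases on the gene's strand stood in 33 of the 56 member windows (58.9%), against 29.3% of all 32851 promoter windows of the same length. The letters CTTTC, which can lie inside such a run, stood in 28.6% of member windows and 6.75% of all windows. CCGGAAG or its reverse complement CTTCCGG, the core letters bound by ETS-family factors, stood in the 300 bases around the start in 41.1% of member windows and 8.86% of all. A match here is a description of letters and not of a bound site.

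Of the 66 rows, 62 had at least 1 FPKM in at least 2 libraries and were tested along with 10757 rows in all. Most were highly expressed: 51 of the 62 averaged at least 100 FPKM at 0 h, and 23 of the 100 rows with the highest mean FPKM in the series were ribosomal protein rows, as were 46 of the highest 200. The rows as deposited often cover more than 1 gene. Of the 66, 41 kept to their own gene, 19 reached past it or lay nested with another, and 6 were merged with a protein-coding neighbour that has no row (Rpl8, Rpl37, Rps18, Rps29 and Rps19bp1 among them), so values of these 6 cannot be split between genes. Another 36 small nucleolar RNA genes lie inside 20 of the rows, and no source used here says if counting used the strand.

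Together the 66 rows made up 3.76% and 3.55% of all FPKM in the 0 h libraries, 8.04% and 7.72% at 24 h, then 8.95% and 8.68% at 48 h, and 9.60% and 9.50% at 72 h. No library after cisplatin came near the 0 h pair. The mean shares at 0, 24, 48 and 72 h were 3.65% ± 0.145, 7.88% ± 0.225, 8.81% ± 0.191 and 9.55% ± 0.0745 (SD, n = 2 each). The sum of all FPKM was itself lower after cisplatin, between 314173 and 375186 in the 6 later libraries against 448667 and 452114 at 0 h. Mitochondrially encoded rows held 20.2% to 21.8% of all FPKM in those 6 and 25.5% and 24.7% at 0 h. With these rows left out the mean member shares were 4.88%, 9.95%, 11.2% and 12.2% in the same order. In rows that keep to their own gene they were 2.19%, 4.65%, 5.32% and 5.91%. The member FPKM themselves summed to 16452 ± 565, 28540.0 ± 2277.7, 27857 ± 367 and 33694 ± 74.4 at 0, 24, 48 and 72 h (SD, n = 2 each).

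**Figure D1:**
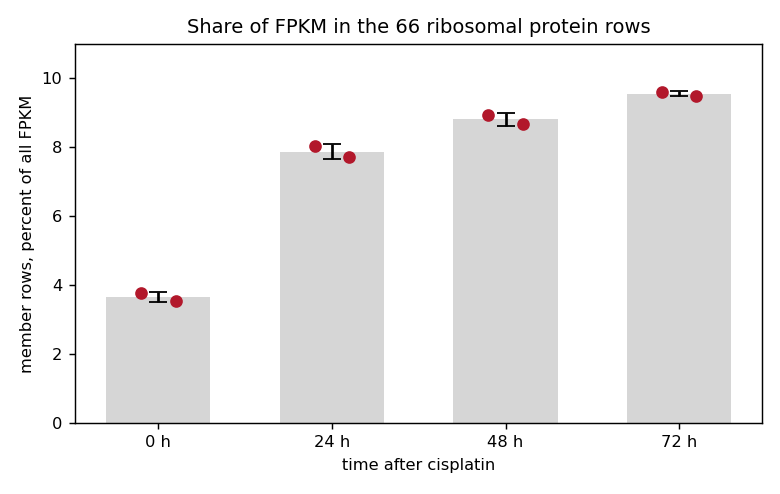
Share of all FPKM in the ribosomal protein rows, in percent, by hours after cisplatin; points are libraries, bars their mean and error bars the SD (n = 2 each). Both libraries at 24, 48 and 72 h lie at 7.72% or above, and both at 0 h lie at 3.76% or below.

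At 24 h 55 of the 62 tested rows were higher than at 0 h and 1 was lower, at a limma Benjamini-Hochberg adjusted p under 0.05 over all rows (background: 25.8% of all tested rows higher and 40% lower). At 48 h 55 were higher and none lower (background 28.5% higher, 42.1% lower). None was lower at an unadjusted limma p under 0.05 either, nor under any alternative tried; the fitted changes of the 62 rows ran from 0.09 to 1.96. At 72 h 59 were higher and 1 lower (background 37.6% higher, 32.4% lower). Higher at all 3 times were 54 rows; the exceptions included Rpl13, Rpl27, Rpl28, Rpl3l, Rplp2, Rps14 and Rps2. Both later libraries lay above both 0 h libraries for 59 of the 62 rows at each of the 3 times (background 33.5%, 36.5% and 46.4%).

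The median log2 change of FPKM + 1 was 0.82 at 24 h, 0.80 at 48 h and 0.996 at 72 h, where the median over all 10757 rows was −0.12, −0.13 and 0.07. Under the 3 other scalings tried the member medians stayed above 0, between 0.93 and 1.38. In linear terms the median member had 1.79, 1.74 and 2.01 times its 0 h FPKM, and 17, 17 and 32 of the 62 had at least 2 times. Another background was formed by the 152 other rows with a mean FPKM at or above the members' lower quartile of 248 FPKM. Their median changes were −0.26, −0.70 and −0.72, and 19.1%, 15.8% and 22.4% of them were called higher at 24, 48 and 72 h, beside 51.3%, 66.4% and 70.4% called lower. Over the 62 rows Spearman's rank correlation of the change with row length was −0.04, −0.15 and −0.16, where Pearson's r was 0.02, −0.13 and −0.11, and of the 1510 other rows no longer than 2345 bases 26.2%, 27.8% and 37.9% were higher. With the 0 h level the rank correlation was −0.30, −0.35 and −0.07 and Pearson's r was 0.21, −0.28 and 0.31, so the sign at 24 and 72 h depended on the coefficient. The 0 h libraries enter both the level and the change, so level and change are not independent. Among the 62 rows are Rpl3l and Rpl13, with means of 1.44 and 1.88 FPKM at 0 h, whose weight in these coefficients was not tested. All values of this paragraph describe rows that share the same 8 libraries.

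**Figure D2:**
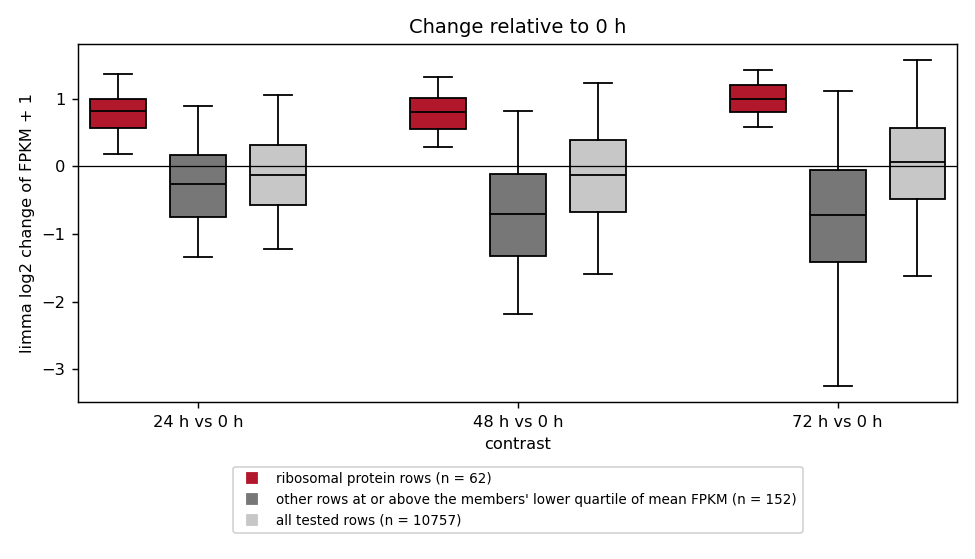
limma log2 change of FPKM + 1 relative to 0 h for the 62 ribosomal protein rows, the 152 other rows of at least 248 FPKM and all 10757 tested rows; boxes give the median and quartiles, whiskers reach the 5th and 95th percentiles. The member medians are 0.82, 0.80 and 0.996, and those of the 152 rows −0.26, −0.70 and −0.72.

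The tissue label and the cells in the isolate were read from lists of marker genes. Summed over 9 proximal tubule markers such as Slc34a1 and Lrp2, levels were 4226.7 and 4586 FPKM at 0 h, 1982 and 1706 at 24 h, then 1138 and 1203 at 48 h, and 548 and 559.8 at 72 h. All 9 were called lower at 48 and 72 h, and 8 of 9 at 24 h. Summed neutrophil markers (4 genes, S100a8 among them) were 0.998 and 1.11 FPKM at 0 h, 23.2 to 28.2 at 24 and 48 h, and 64.0 and 61.6 at 72 h, and all 4 were called higher at 72 h. The 4 endothelial markers summed to 42.7 and 40.3 FPKM at 0 h and 46.4 to 53.99 at 24 and 48 h. At 72 h they summed to 76.2 and 81.4 FPKM. At each of 24 and 48 h 2 of these were called higher and 1 lower, and at 72 h all 4 were higher. The 3 macrophage markers with a row summed to 18.2 and 18.5 FPKM at 0 h and 28.5 and 19.3 at 24 h. They summed to 26.5 and 26.9 FPKM at 48 h, and to 49.98 and 52.1 at 72 h. Of the 2 tested, 1 was called higher and 1 lower at each of 24 and 48 h, and both higher at 72 h. Podocyte markers (3 genes) summed to 18.9 to 24.5 FPKM in the 6 later libraries against 11.2 and 9.09 at 0 h, and 2 markers of cycling cells to 1.03 to 3.56 against 0.557 and 0.532. Distal tubule markers (3 genes) summed to 49.99 to 126 FPKM in the later libraries against 294 and 272 at 0 h, intercalated cell markers (3 genes) to 5.36 to 10.4 against 31.2 and 31.5, and thick ascending limb markers (3 genes) to 90.4 to 152 against 240.2 and 246. Of the T cell markers Cd3e and Cd8a stayed under 0.4 FPKM in every library. The part of these cell types in the ribosomal protein levels was not tested.

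Small subunit rows were higher as a group: 22 of 24 at 24 h, 22 at 48 h and 24 at 72 h, with median log2 changes of 0.86, 0.81 and 1.02. Rps24, a small subunit protein needed for pre-rRNA processing and mutated in human Diamond-Blackfan anaemia, rose most at 24 h. It was listed at 171 and 170.4 FPKM at 0 h, 612 and 548 at 24 h, then 527 and 531 at 48 h, and 515 and 482 at 72 h. Its log2 change was 1.76 ± 0.07 (SE) at 24 h, with a limma adjusted p of 2.69e-07, and 1.54 at 72 h. The Rps24 row, chr14:24487148-24496146 on the plus strand, reaches past the gene.

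Rps12, whose fly counterpart is known for cell competition, was higher at 24 h than at 0 h, and higher at 72 h than at 48 h. It had 350.4 and 316 FPKM at 0 h, 808 and 855 at 24 h, then 842 and 881 at 48 h, and 1204 and 1050.3 at 72 h. Its log2 change was 1.32 ± 0.08 (SE) at 24 h and 1.75 at 72 h, with a limma adjusted p of 1.73e-07 at 72 h. It keeps to its own gene at chr10:23785077-23788452, minus strand, but holds 3 small nucleolar RNA genes. Rps3a1, a small subunit protein at the mRNA exit, stood at 218 and 225 FPKM at 0 h and between 518 and 585 in the 6 later libraries, with a log2 change of 1.25 at 48 h.

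Rps18, a protein of the small subunit head that touches the large subunit, had the largest change of any called member at 72 h. Its row was listed at 68.2 and 62.4 FPKM at 0 h, 123 and 114 at 24 h, then 133 and 142 at 48 h, and 237 and 255 at 72 h. These last lay well above all others, with a log2 change of 1.90 ± 0.08 (SE) from 0 h and a limma adjusted p of 6.26e-08. The row, chr17:33949278-33956049 on the minus strand, also spans B3galt4, a galactosyltransferase gene, and the 2 cannot be separated.

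At the other end were Rps14 and Rps2, which were called at 72 h and at neither earlier time. Rps14, whose loss underlies the anaemia of a human myelodysplastic syndrome, had 485 and 487 FPKM at 0 h, 493 and 522 at 24 h, then 511 and 588 at 48 h, and 753 and 705 at 72 h. Its log2 change was 0.58 ± 0.08 (SE) at 72 h, with a limma adjusted p of 0.000141, against 0.06 at 24 h. Rps2, a protein of the mRNA entry channel, had 672 and 669 FPKM at 0 h, 819 and 711 at 24 h, then 726 and 698 at 48 h, and 1049 and 1023 at 72 h. Its 24 h change of 0.19 had an adjusted p of 0.0523 by limma and passed where libraries were set to 1 median (0.31), quantile normalised (0.45) or rescaled without mitochondrially encoded rows (0.42), where the fit held only rows that keep to their own gene (0.19), and without 24 h b (0.29).

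**Figure D3:**
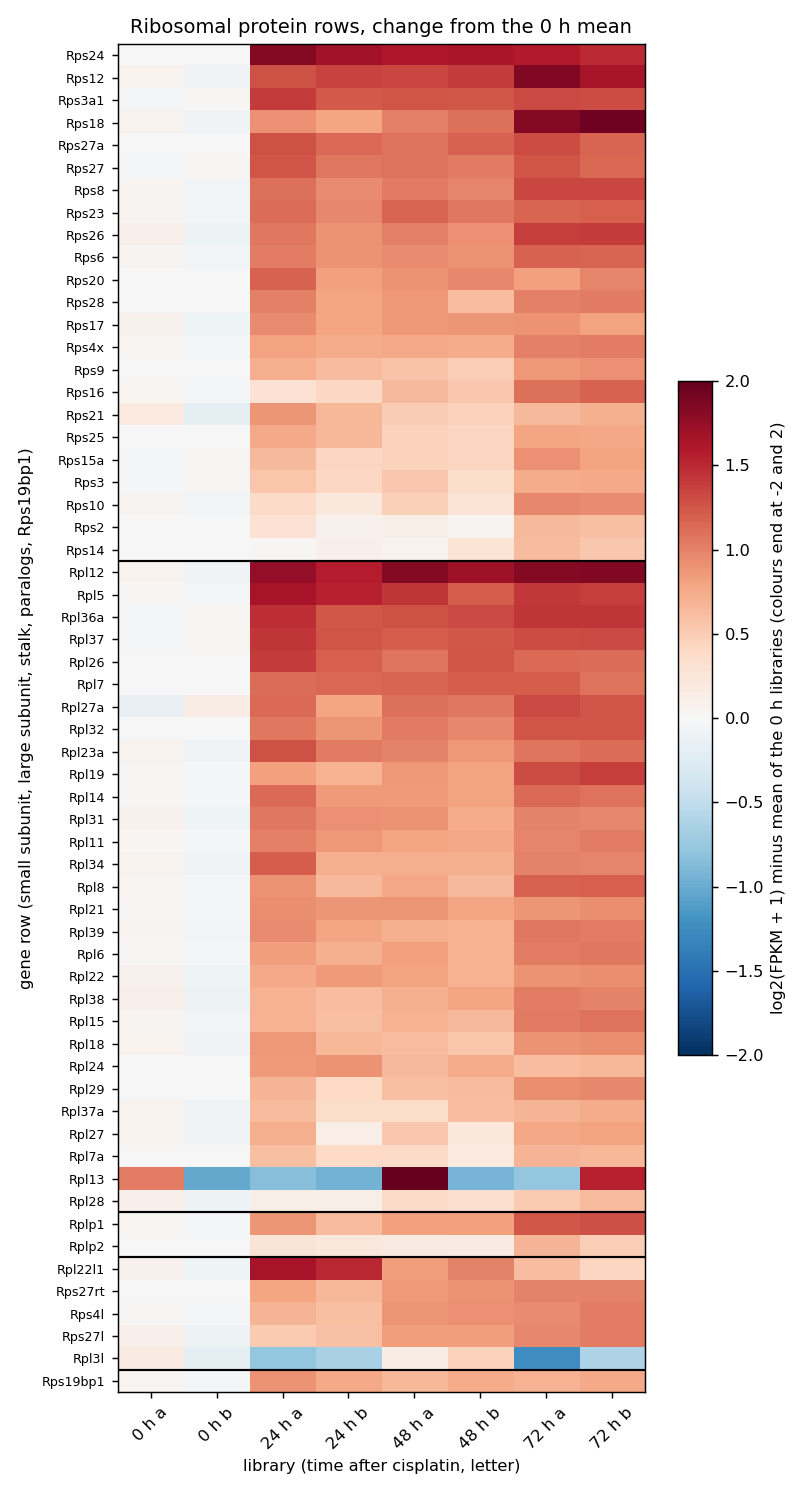
log2(FPKM + 1) minus the mean of the 0 h libraries for tested rows (down; not every row is drawn) in the 8 libraries (across, by hours and letter); lines separate small subunit, large subunit, stalk, paralogs and Rps19bp1, and colours end at −2 and 2. Nearly all rows are red in all 6 libraries after cisplatin, with Rpl13 and Rpl3l standing out.

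Among the large subunit proteins 26 of 30 were higher at 24 h, 27 at 48 h and 28 at 72 h, with median log2 changes of 0.87, 0.77 and 1.02. Rpl12, which lies at the base of the stalk where translation factors dock, rose most among the large subunit rows that were called. It had 113 and 102 FPKM at 0 h, 365 and 322 at 24 h, then 385 and 350.5 at 48 h, and 386 and 392 at 72 h. It ended at 3.61 times its 0 h level, with a log2 change of 1.84 ± 0.08 (SE) and a limma adjusted p of 1.27e-07. The row keeps to its own gene at chr2:32961335-32964496, plus strand.

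Rpl36a, a small basic protein near the tRNA exit site, stood at 101 and 104 FPKM at 0 h, 287 and 243 at 24 h, then 249 and 257 at 48 h, and 277 in both libraries at 72 h. The Rpl37 row, which also spans the AMPK subunit gene Prkaa1, had 426 and 379.7 FPKM at 24 h against 153 and 163 at 0 h. Both were far outside the spread of their libraries, with log2 changes at 24 h of 1.36 for Rpl36a and 1.34 for Rpl37. The merged Rpl8 row stood at 813 and 828 FPKM at 72 h against 368 and 351 at 0 h.

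The most abundant large subunit rows by mean FPKM were Rpl37a and Rpl32. Rpl37a had 800.0 and 729 FPKM at 0 h, 1183 and 985 at 24 h, then 989 and 1172 at 48 h, and 1229.7 and 1279 at 72 h, with log2 changes of 0.50, 0.49 and 0.71. Rpl32 had 459 and 451 FPKM at 0 h, 948 and 843 at 24 h, then 931 and 885 at 48 h, and 1085 in both libraries at 72 h. Of the abundant small subunit rows, Rps28 had 1157 and 1183 FPKM at 72 h against 574 and 576 at 0 h, and Rps21 had 875 and 920.3 against 639 and 491. All 4 were called higher at each of the 3 times.

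Rpl28 was not called at 24 h, with 367 and 365 FPKM there against 364 and 313 at 0 h, but it was at 48 h, with 440.4 and 425 FPKM, and at 72 h, with 485 and 525 FPKM. Rpl27 was called only at 72 h, where it had 313 and 319 FPKM against 191 and 173 at 0 h; its 24 h libraries differed from each other, at 302 and 198 FPKM.

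The stalk proteins Rplp1 and Rplp2, which recruit elongation factors to the ribosome, differed in level and in course. Rplp1 was the most abundant member, with 1329.9 and 1248 FPKM at 0 h, 2383 and 1990.3 at 24 h, then 2287 and 2271 at 48 h, and 3064 and 3144 at 72 h. Its partner Rplp2 had 298 and 297 FPKM at 0 h, 357 and 345 at 24 h, then 336 and 333 at 48 h, and 479 and 421 at 72 h. Rplp1 was higher at every time (log2 change 0.76, 0.82 and 1.27). Rplp2 was called at 24 h (0.24, limma adjusted p = 0.0158) and 72 h (0.59), while its 48 h change was 0.17, with an adjusted p of 0.0599 by limma. The 24 h call of Rplp2 was lost without either 0 h library or without 24 h a, at changes of 0.21 to 0.24. The difference between the 2 genes' changes was not tested.

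Members with known roles outside the ribosome were also higher. Rpl5 and Rpl11 bind Mdm2 together with 5S rRNA and so restrain it. Rpl5 had 65.6 and 63.9 FPKM at 0 h, 204 and 192 at 24 h, then 176 and 152 at 48 h, and 173 and 170.4 at 72 h, a log2 change of 1.60 ± 0.08 (SE) at 24 h with a limma adjusted p of 6.61e-07. Rpl11 had 216 and 203 FPKM at 0 h, 422 and 385 at 24 h, then 362 and 358 at 48 h, and 414 and 427 at 72 h. Rpl26, known to bind p53 mRNA after DNA damage, had 332 and 331 FPKM at 0 h, 879 and 758 at 24 h, then 699 and 796 at 48 h, and 727 and 724 at 72 h. All 3 were called higher at each time, with most of the change present at 24 h, and each row reaches past its gene.

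Rps6, the substrate of S6 kinase downstream of mTORC1, had 279 and 259 FPKM at 0 h, 549 and 502 at 24 h, then 517 and 499.5 at 48 h, and 609.7 and 604 at 72 h. Rps27a, which is made as a fusion with ubiquitin, had 154 and 156 FPKM at 0 h, 378 and 344 at 24 h, then 333 and 354 at 48 h, and 387 and 350.5 at 72 h. Rps3, which also acts in base excision repair, had 309 and 317 FPKM at 0 h, 459 and 417 at 24 h, then 456 and 399 at 48 h, and 525 and 527 at 72 h. Their 72 h log2 changes were 1.17 for Rps6, 1.24 for Rps27a and 0.75 for Rps3. All 3 were called higher at every time.

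In the arm of p53 that these proteins touch, a list of 9 genes held 8 called higher and 1 lower at 24 h, and 8 higher and none lower at 48 and 72 h. The shares of all tested rows at these times were 25.8%, 28.5% and 37.6% higher and 40%, 42.1% and 32.4% lower. Mdm2 had 7.19 and 8.39 FPKM at 0 h, 56.5 and 41.2 at 24 h, then 51.8 and 55.5 at 48 h, and 47.0 and 47.9 at 72 h. Cdkn1a, the p21 inhibitor of the cell cycle, had 1.34 and 1.67 FPKM at 0 h, 57.0 and 49.6 at 24 h, then 93.9 and 89.9 at 48 h, and 92.6 and 102 at 72 h. Sesn1, itself a p53 target, was the gene called lower at 24 h (−0.30) and was not called later; under the 3 other scalings none of the 9 was lower.

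Of the 8 paralogs 5 were tested, and they did not share a course. Rpl22l1, the paralog that mouse Rpl22 is known to repress, peaked at 24 h. It had 57.9 and 51.4 FPKM at 0 h, 173 and 158 at 24 h, then 98.4 and 109 at 48 h, and 84.5 and 73.7 at 72 h. Its log2 change from 0 h was 1.58 ± 0.10 (SE) at 24 h (limma adjusted p = 1.77e-06), 0.91 at 48 h and 0.52 at 72 h, and no value at 48 or 72 h reached the lower of the 24 h libraries. Rpl22 itself had 35.1 and 31.1 FPKM at 0 h, 56.7 and 60.6 at 24 h, then 58.3 and 54.0 at 48 h, and 62.6 and 64.1 at 72 h. Per length, then, Rpl22l1 was the higher of the pair in all 8 libraries, by the most at 24 h.

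Rps27l, a p53 target gene, was higher at every time than at 0 h: it had 155 and 135 FPKM at 0 h, 208 and 217 at 24 h, then 258 and 259 at 48 h, and 282 and 295 at 72 h. Its log2 change was 0.55 at 24 h, 0.83 at 48 h and 0.99 at 72 h, and the pairs of successive times did not overlap, although the step from 48 to 72 h (0.16) had an adjusted p of 0.113 by limma. The retrogene Rps27rt had 928 and 919.7 FPKM at 72 h against 465 and 463 at 0 h, whereas Rps27, the gene it derives from, had 38.1 and 35.0 FPKM at 72 h against 14.8 and 15.8 at 0 h.
Rps27 (chr3:90213624-90213673, minus strand): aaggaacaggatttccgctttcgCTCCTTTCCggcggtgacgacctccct
Rps27rt (chr9:114982715-114982764, minus strand): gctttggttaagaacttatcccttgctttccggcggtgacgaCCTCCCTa
The pair is printed because the 2 promoter sequences share a run of 38 identical bases, which begins at base 2 of Rps27 and at base 1 of Rps27rt. Reads of such near-identical genes can be assigned to either, so the level of each is uncertain and only their shared upward course was read.

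Rps4l, a look-alike of Rps4x, had 3.99 and 3.795 FPKM at 0 h, 6.87 and 6.46 at 24 h, then 7.99 and 8.22 at 48 h, and 8.41 and 8.997 at 72 h. Rps4x had 452 and 455 FPKM at 72 h against 229 and 218 at 0 h. Rpl3l, a paralog of striated muscle, stood near 1 FPKM and was the single member called lower. It had 1.76 and 1.13 FPKM at 0 h, 0.413 and 0.544 at 24 h, then 1.68 and 2.35 at 48 h, and 0.0199 and 0.575 at 72 h. Its fall at 24 h (log2 change −0.71, limma adjusted p = 0.0214) was lost with a pseudocount of 0.1 (−1.39), without a filter on low values (−0.71) and with mitochondrially encoded rows left out (−0.58), and without 0 h a (−0.53), 24 h a (−0.65) or 24 h b (−0.78).

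**Figure D4:**
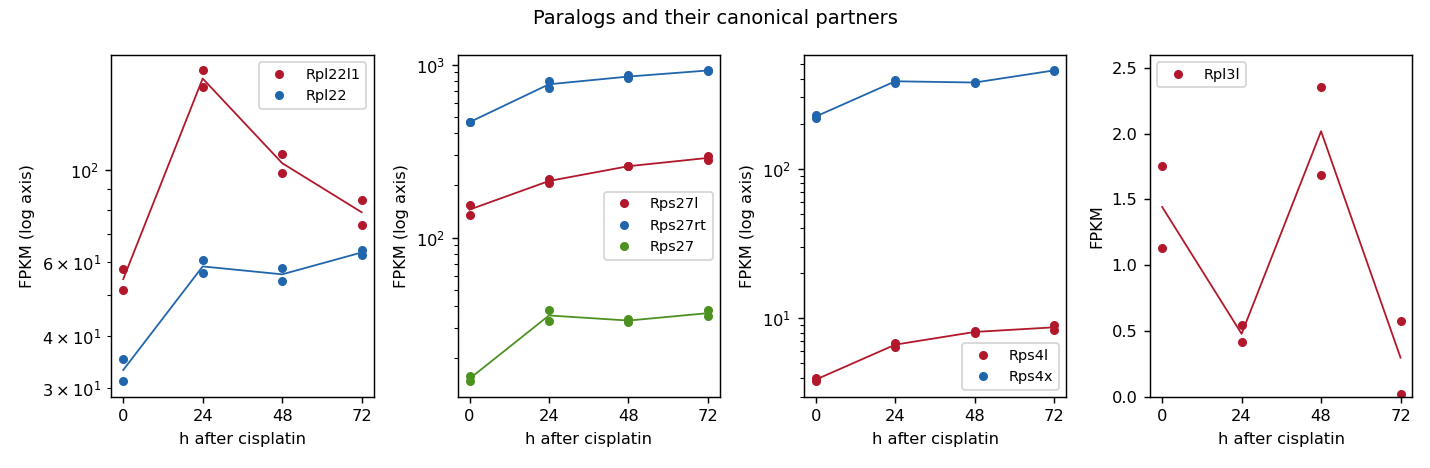
FPKM of paralogs and their canonical partners by hours after cisplatin, with points for libraries and lines through the means; the first 3 panels have log axes. Rpl22l1 peaks at 24 h with 173 and 158 FPKM while Rpl22 stays between 54.0 and 64.1 from 24 h on.

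Some members could not be read. Rpl10l, a paralog of the testis, was listed at 0 in all 8 libraries, and Rpl39l, another, at 0 in 6. The merged Rps29 row was also listed at 0 in all 8. Since Rps29 belongs to every ribosome, 0 can there be a failed estimate, and a 0 in this table says only how a gene is listed. Rpl6l was between 0.0217 and 0.165 FPKM. Rpl13 was tested, but libraries of the same time disagreed: it had 64.4 FPKM in 48 h a and 0.198 in 48 h b. It was not called in any comparison. Rps19bp1, whose row also spans the stress transcription factor gene Atf4, had 7.19 and 6.78 FPKM at 0 h, 14.0 and 12.5 at 24 h, then 11.6 and 12.4 at 48 h, and 11.9 and 12.5 at 72 h.

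Another 23 protein-coding genes of the same naming pattern had no row of their own, and 22 of these lie inside the row of another gene. In 14 cases 1 row alone covers such genes, 15 genes in all. At each of 24, 48 and 72 h 11 of these 14 rows were higher (background 25.8%, 28.5% and 37.6%), though not the same 11. The row named Ndufs7 was not called at 24 h and was higher later. The row named Rida was higher at 24 h, not called at 48 h and lower at 72 h. The row named Rab35, which covers the stalk protein gene Rplp0, had 899 and 895 FPKM at 72 h against 491 in both 0 h libraries. The row named Cd79a covers Rps19 and had 529.5 and 514 FPKM at 72 h against 232 and 208 at 0 h. Rows that went the other way were Acads, Map7 and, at 72 h, Rida, and how much of any of these values belongs to the ribosomal protein gene cannot be told apart from its host.

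Between 24 and 48 h few members moved. Of the 62, 3 were higher at 48 h (background 11.2%) and 3 lower (background 17.2%), with a median log2 change of −0.05 beside −0.03 over all rows. Of the 152 other rows of high level 57.2% were lower in this step and 5.92% higher. Higher were Rpl3l (1.02 ± 0.22 SE), Rps27l (0.28 ± 0.08 SE) and Rps16 (0.24 ± 0.07 SE). Lower were Rpl22l1 (−0.67 ± 0.10 SE), Rpl5 (−0.28 ± 0.08 SE) and Rps25 (−0.27 ± 0.06 SE), a small subunit protein used by viral internal ribosome entry sites, which had 452 and 441 FPKM at 48 h against 556 and 518 at 24 h. The direction of the median turned with the scaling: it was 0.22 after quantile normalisation, with 32 rows higher and 1 lower, and 0.15 without mitochondrially encoded rows, with 23 higher and 1 lower. It also turned, to 0.03, without 24 h a. Without 24 h b 13 rows were lower, and without 48 h b none was higher and 1 was lower.

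Between 48 and 72 h 31 of 62 members were higher (background 37.2%) and 2 were lower (background 11.3%), with a median log2 change of 0.25 beside 0.18 over all rows. Of the 152 other rows of high level 28.9% were higher and 33.6% lower. Both libraries at 72 h lay above both at 48 h for 47 of the 62 members (background 56%). The count was 16 of 24 among small subunit rows, 13 of 30 among large subunit rows, and 2 of 2 in the stalk. Rps18 rose most (0.84 ± 0.08 SE, limma adjusted p = 6.41e-05), followed by Rps10 (0.58), Rps16 (0.55) and Rps2 (0.54). Rps10, which lies near the mRNA entry and is a target of ubiquitin on stalled ribosomes, had 640.2 and 637 FPKM at 72 h against 457 and 399 at 48 h. Rps16, whose tail reaches the tRNA in the decoding site, had 640.1 and 675 FPKM at 72 h against 466 and 433 at 48 h. Lower were Rpl3l (−1.24) and Rpl22l1 (−0.39). The count of higher rows depended on the scaling and on single libraries: it was 12 with 1 median in every library, 13 after quantile normalisation and 18 without mitochondrially encoded rows, and 20 without 48 h b, without 72 h a or without 72 h b. Over all rows these scalings gave 20.7% higher and 24% lower, 22.6% and 22.9%, and 27.1% and 18.5%.

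**Figure D5:**
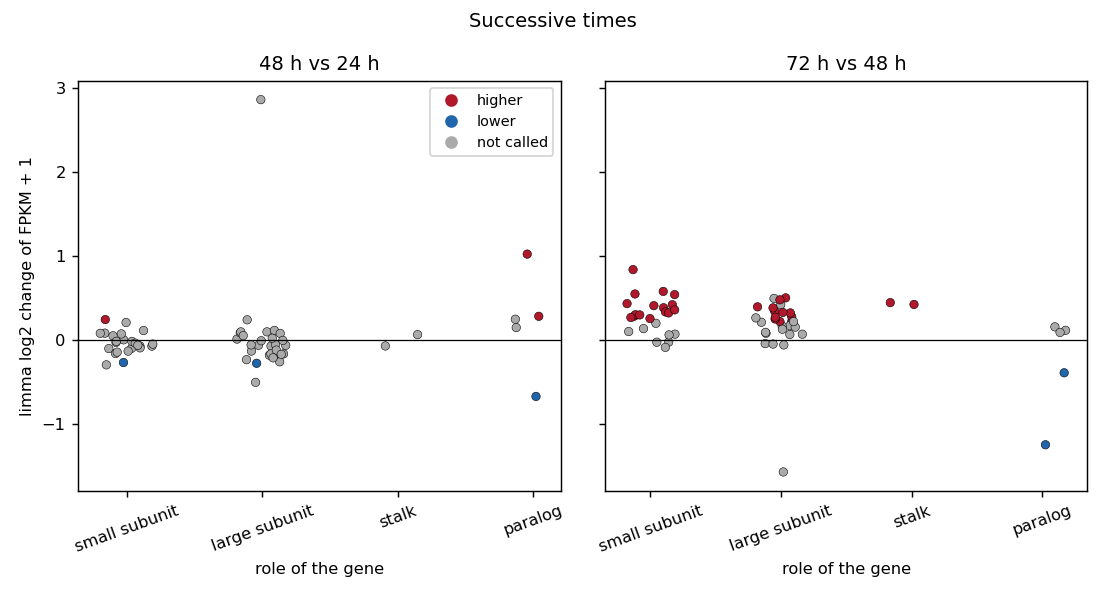
limma log2 change of FPKM + 1 between successive times for the tested members, by role, with points spread sideways and coloured by call (red higher, blue lower, grey not called). From 24 to 48 h 3 members are higher and 3 lower; from 48 to 72 h 31 are higher and 2 lower.

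Other mRNAs with a TOP motif are the nearest relatives of these genes by regulation. Of 15 tested, 9 were higher and none lower at 24 h, 8 and none at 48 h, and 10 and 1 at 72 h, with median log2 changes of 0.49, 0.35 and 0.67 (background over all rows 25.8%, 28.5% and 37.6% higher). After quantile normalisation 14, 15 and 13 of the 15 were higher, and without mitochondrially encoded rows 13, 15 and 13, with none lower. With the same median in every library 12, 12 and 10 were higher, and 1 was still lower at 72 h. Tpt1, a growth-related protein, had 28.4 and 29.7 FPKM at 0 h, 82.7 and 83.8 at 24 h, then 104 and 95.7 at 48 h, and 91.8 and 87.7 at 72 h. Pabpc1, the poly(A)-binding protein, had 163 and 175 FPKM at 72 h against 67.1 and 73.7 at 0 h. Eif4b was the gene called lower at 72 h, at −0.23. Rpsa and Rack1, small subunit proteins under other names, were called higher at 72 h: Rpsa had 522 and 626 FPKM there against 269 and 276 at 0 h, and Rack1 533 and 545 against 282 and 278. At 24 h neither was called, with changes of 0.19 and 0.21, but both were under each of the 3 other scalings tried.

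The factors that assemble ribosomes were also higher in number: of 56 tested, 38 were higher and 5 lower at 24 h, then 34 and 7 at 48 h, and 34 and 2 at 72 h, with median log2 changes of 0.54, 0.42 and 0.46. Over all rows 25.8%, 28.5% and 37.6% were higher and 40%, 42.1% and 32.4% lower. The count of higher factors at 72 h was 32 with the same median in every library and 33 after quantile normalisation. It was 52 without mitochondrially encoded rows, a setting in which 50.8% of all rows were higher. Nop58 and Nop56, core proteins of the box C/D small nucleolar RNPs that methylate rRNA, were among the higher ones. Nop58 had 4.29 and 4.54 FPKM at 0 h, 25.1 and 24.2 at 24 h, then 24.4 and 23.9 at 48 h, and 23.7 and 26.7 at 72 h. Nop56 had 7.36 and 7.52 FPKM at 0 h, 35.1 and 35.5 at 24 h, then 24.4 and 24.3 at 48 h, and 20.4 and 21.4 at 72 h. Nucleolar proteins Gnl3 and Npm1 were higher too, with log2 changes of 2.19 and 1.502 at 24 h and 1.69 and 0.81 at 72 h. Mdn1, an ATPase that remodels the pre-60S particle, went the other way, with 4.24 and 4.09 FPKM at 24 h against 8.56 and 7.01 at 0 h.

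RNA polymerase I makes the rRNA itself. Of 11 tested genes of the enzyme and its factors, 4 were higher and 2 lower at 24 h, then 4 and 4 at 48 h, and 5 and 1 at 72 h, beside the same shares over all rows. Without mitochondrially encoded rows the split was 6 and 1 at 48 h and 7 and 0 at 72 h. In that setting 46.4% and 50.8% of all rows were higher. With the same median in every library the split was 5 and 3 at 48 h and 5 and 1 at 72 h. After quantile normalisation it was 4 and 2 at 48 h and 4 and 3 at 72 h. Of the enzyme's largest subunits Polr1a was called lower at 24 and 48 h and Polr1b at all 3 times: Polr1a had 3.43 and 2.87 FPKM at 24 h against 4.06 and 4.62 at 0 h, and Polr1b 4.59 and 4.22 against 6.73 and 6.43. Of 32 translation initiation factors 16 were higher and 5 lower at 24 h, 12 higher and 3 lower at 48 h, and 13 higher and 3 lower at 72 h. The shares of all tested rows were 25.8%, 28.5% and 37.6% higher and 40%, 42.1% and 32.4% lower. The factor counts depended on the scaling. After quantile normalisation 22, 28 and 24 were higher, with 1, 2 and 1 lower, beside 30.1%, 34.2% and 34.7% of all rows higher. Without mitochondrially encoded rows 21, 28 and 25 were higher, with 1, 1 and 2 lower, beside 35.2%, 46.4% and 50.8% of all rows higher. With the same median in every library 17, 16 and 13 were higher, with 2, 2 and 4 lower, beside 32.1%, 35.6% and 34.7% of all rows higher. Eif2s1, the alpha subunit of eIF2, was called higher at each time. Of 6 elongation factors 4 were higher at 24 h, 2 at 48 h and 5 at 72 h, with none lower, beside the same shares of all rows. Their 48 h count was 4 with the same median in every library and 5 under each of the other 2 scalings.

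Back-spliced RNA was read at the same loci. Of 2163 circRNAs in the deposited count table, 3 lay within a member row, and just 1 of these lay in the member's own gene. It is in Rps3, at chr7:99482785-99482932, an interval of 148 bases whose ends are exactly those of the intronic small nucleolar RNA Snord15a. The table holds whole numbers whose totals differ between libraries, but its name calls them normalised, so how far they are raw counts is not certain. The values were 53 and 70 at 0 h, 77 and 62 at 24 h, then 85 and 88 at 48 h, and 126 and 88 at 72 h. As a share of all back-splice counts these were 0.390% and 0.385%, 0.451% and 0.357%, 0.404% and 0.516%, and 0.772% and 0.569%. The highest library, 72 h a, had a 95% exact (Clopper-Pearson) interval of 0.644% to 0.919%, which covers counting error only. An exact permutation test over the 4 groups of libraries gave p = 0.0762, where 0.00952 is the smallest p its 105 assignments allow, so a difference between the groups did not pass the threshold.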

How the data were processed

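RNA of the 8 libraries had been depleted of ribosomal RNA with Ribo-Zero, per the labels' protocols, before sequencing. Gene levels are FPKM as the authors deposited them. Bowtie 0.12.2, TopHat2, Cufflinks and the mm10 build appear in the submitters' processing notes without a stated role. The circRNA table was deposited as back-splice counts per position pair, and no source used here names its caller. Of its columns 8 belong to no library of the series as labelled and were not used. FPKM keep no depth, so no counting error can be given for them. The columns carry letters and the labels replicate numbers, and columns were therefore placed by time alone.

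Symbols were given to rows by Ensembl identifier, and 19742 rows had a symbol. Gene spans and promoters came from RefSeq tables (GRCm38.p6) and were matched by symbol. A row was taken as its own gene if it ended within 2000 bases of that gene. The 10757 rows that reached 1 FPKM in 2 or more libraries were fitted as log2(FPKM + 1), which understates changes of low rows, in 1 limma 3.58.1 model (R 4.3.3, trend and robust) over all 8 libraries. P-values are two-sided and Benjamini-Hochberg adjusted over all rows in each comparison, with a threshold of 0.05. The fit was tested on simulated data. Named members were the 6 largest called changes each way from 0 h, the 4 largest each way between successive times, the 5 highest and 5 lowest by mean FPKM, paralogs with their partners, members with roles outside the ribosome or in disease, those listed at 0, and those in shared rows; up to 4 genes of each other list followed by p. Rps14, Rpl27, Rpl28 and the rows named for other genes were chosen after their values were seen. Members and lists were chosen with earlier results of these data known. Some items are counted in the totals but not reported here by name.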

Additional observations from a re-analysis of the deposited data

Results flagged for a closer look

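In some members the change from 0 h itself differed between successive times, by the limma contrast of those times. Named here are the largest called differences, up to 4 each way in each step, among members whose libraries did not overlap. Rpl22l1 was lower at 48 h than at 24 h (log2 change −0.67) and lower at 72 h than at 48 h (−0.39). Rpl3l, near 1 FPKM, was higher at 48 h than at 24 h (1.02) and lower at 72 h than at 48 h (−1.24). Rps16 was higher in both steps, by 0.24 and 0.55. From 24 to 48 h Rps27l was also higher (0.28), and Rpl5 (−0.28) and Rps25 (−0.27) were lower. From 48 to 72 h Rps18 (0.84), Rps10 (0.58) and Rps2 (0.54) were higher. In all, 3 of 62 members were higher (background 11.2%) and 3 lower (background 17.2%) from 24 to 48 h. From 48 to 72 h 31 were higher (background 37.2%) and 2 lower (background 11.3%). The counts of higher members in both steps depended on the scaling and on single libraries, as given above. Outside the gene table, the back-splice at Snord15a in Rps3 had 126 in library 72 h a and 88 in 72 h b, against 53 and 70 at 0 h. Its share of all back-splice counts did not pass the threshold in an exact permutation test over the 4 groups (p = 0.0762).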

How the results depend on the processing

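No paired analysis was possible because the columns carry none of the replicate numbers that the labels give, and no source used here says that a letter marks a shared animal or batch. The limits are the 2 libraries per time, levels relative to each library's total, and rows that cover several genes. The counts of members higher than at 0 h stayed within 1.5 times under the 3 scalings; restricted to rows that keep to their own gene they were 33, 32 and 35 at 24, 48 and 72 h, and 19 from 48 to 72 h, since fewer members remain. Median changes at 24, 48 and 72 h were 0.94, 0.94 and 0.93 with the same median in every library, 1.06, 1.29 and 1.38 after quantile normalisation, and 1.03, 1.24 and 1.28 with mitochondrially encoded rows left out. These settings also moved the split over all rows: at 24 h it was 25.8% higher and 40% lower as deposited, 32.1% and 33.6% with the same median, 30.1% and 32.9% after quantile normalisation, and 35.2% and 29.6% without mitochondrially encoded rows. At 48 h the splits were 28.5% and 42.1%, 35.6% and 36.1%, 34.2% and 35%, and 46.4% and 26.2%; at 72 h they were 37.6% and 32.4%, 34.7% and 35.8%, 34.7% and 34.2%, and 50.8% and 23.1%. The median of all rows (−0.12, −0.13 and 0.07 at 24, 48 and 72 h) moved to 0.07, 0.23 and 0.30 without mitochondrially encoded rows, and to between −0.02 and 0.01 under the other 2 scalings; relative to it the member medians stayed higher. The 1 lower member at 24 h became 0 with a pseudocount of 0.1, without the filter, without mitochondrially encoded rows and among canonical members, and the 1 at 72 h became 0 among canonical members. From 24 to 48 h, higher members numbered 1 without the filter, 7 with the same median, 32 after quantile normalisation, 23 without mitochondrially encoded rows and 1 among canonical members, while 1 was lower after quantile normalisation and 1 without mitochondrially encoded rows. The median of that step became 0.22 after quantile normalisation and 0.15 without mitochondrially encoded rows. From 48 to 72 h, 12, 13 and 18 were higher and 7, 7 and 6 lower under the same median, quantile normalisation and leaving out mitochondrially encoded rows, with medians of 0.0495, 0.0752 and 0.10, and 0 were lower among canonical members. The causes were not tested. The share of all FPKM without mitochondrially encoded rows was 4.88%, 9.95%, 11.2% and 12.2% at 0, 24, 48 and 72 h, and in rows that keep to their own gene 2.19%, 4.65%, 5.32% and 5.91%. Leaving out 1 library at a time, where the lone library is assumed to vary like the others, gave higher counts of 53 to 57, 54 to 56 and 58 to 59 at 24, 48 and 72 h, 0 to 4 from 24 to 48 h and 20 to 33 from 48 to 72 h. Lower counts were 0 to 1, 0 to 0 and 1 to 1 relative to 0 h, 1 to 13 from 24 to 48 h and 1 to 2 from 48 to 72 h. Medians were 0.75 to 0.90, 0.74 to 0.85 and 0.97 to 1.06 relative to 0 h, −0.1076 to 0.0342 (without 24 h a) from 24 to 48 h and 0.21 to 0.27 from 48 to 72 h. Of 1828 values of named members under alternatives, 1776 kept direction and side of the threshold, 36 lost the call, 14 gained it and 2 reversed, both after quantile normalisation from 24 to 48 h: Rpl5 (0.0064) and Rps25 (0.0584). Restricting to canonical members was chosen after seeing the data.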

Other observations

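Of 18 tested regulators of mTORC1 and of TOP mRNAs, 6 were higher and 9 lower at each of 24, 48 and 72 h. Over all rows 25.8%, 28.5% and 37.6% were higher and 40%, 42.1% and 32.4% lower at these times. With mitochondrially encoded rows left out the split of the regulators was 8 higher and 5 lower at 48 and 72 h. Under each of the other 2 scalings it was 7 and 8 at 48 h and 6 and 10 at 72 h. Eif4ebp1, which blocks cap-dependent initiation, had 5.21 and 5.69 FPKM at 0 h, 10.1 and 9.11 at 24 h, then 14.7 and 12.2 at 48 h, and 35.8 and 35.7 at 72 h. Its relative Eif4ebp2 was lower at every time, with log2 changes of −1.57, −1.54 and −1.27. Larp1, which binds TOP mRNAs, was lower too (−0.62, −0.61 and −0.54), as was Tsc2, which restrains mTORC1 (−1.35, −1.56 and −1.25). Rheb, which activates mTORC1, was higher (1.02, 1.01 and 0.82).

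Myc, a transcription factor of ribosome genes, had 1.25 and 0.974 FPKM at 0 h, 4.42 and 4.21 at 24 h, then 5.08 and 5.06 at 48 h, and 7.60 and 8.06 at 72 h. Of the 7 genes of its network tested, 2 were higher and 3 lower at 24 h, 3 higher and 3 lower at 48 h, and 4 higher and 1 lower at 72 h. The shares over all rows were 25.8%, 28.5% and 37.6% higher and 40%, 42.1% and 32.4% lower. Beside the same shares stood 10 tested genes that deal with stalled ribosomes. Of them 3 were higher and 1 lower at 24 h, 4 higher and 2 lower at 48 h, and 5 higher and 3 lower at 72 h. Without mitochondrially encoded rows their split was 7 higher and 2 lower at 48 h and 6 higher and 0 lower at 72 h. In that setting 46.4% and 50.8% of all rows were higher. With the same median in every library it was 4 and 2 at 48 h and 5 and 4 at 72 h. After quantile normalisation it was 6 and 2 at 48 h and 5 and 3 at 72 h. Map3k20, the kinase that senses stalled or collided ribosomes, was higher at every time (log2 change 1.03, 1.22 and 1.80), as was the ribosome-splitting factor Abce1 (1.10, 0.99 and 0.85). Ltn1, the ubiquitin ligase of the large subunit, was lower (−0.55, −0.66 and −0.38).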
